A study of Homo sapiens with 2 samples.

Results

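The RAB GTPases are a family of small membrane switches, and their transcripts were compared between the TSG101-knockdown line Saos-2-2 and its parent Saos-2, a human osteosarcoma line. A RAB protein bound to GTP recruits effectors that move, tether and fuse vesicles, and most members work on a particular organelle. Exchange factors load GTP, and GTPase-activating proteins end the signal. REP proteins serve the prenylation of new RABs, and GDI proteins keep the prenylated protein soluble between rounds. TSG101 is a subunit of ESCRT-I, which sorts ubiquitinated cargo at the endosome, where RAB5, RAB7 and RAB11 proteins also act.

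Members were all spots of the arrays whose gene symbol was that of a RAB small GTPase, without regulators or effectors. These were 121 of 41568 spots, of which 118 were usable on each array, and they held 108 cDNA clones of 48 genes. Of the clones, 100 carried a single gene symbol and 8 carried a second one. Clones with a second symbol are given apart because their signal cannot be assigned to a gene. In all, 97 single-gene clones of 45 genes were tested, among 34674 tested clones of the arrays. The clones of RAB25 and RAB33A and 1 of the clones of RAB3C were left out because the scanner software had marked a spot as unusable, and RAB35 was present only on clones with a second symbol. All 97 tested clones stood at 1.5 times the local background or more in both lines on both arrays.

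Saos-2-2 carries an shRNA against TSG101 and was obtained by co-transformation with a plasmid for GFP and puromycin resistance, followed by isolation of colonies and cloning, so that it stands for a single clone. Saos-2 is the parental line without the shRNA, and no line with a control shRNA was compared. Each of 2 arrays, labelled replicates 1 and 2, held Saos-2-2 RNA in Cy5 and Saos-2 RNA in Cy3. A dye effect, an effect of cloning or selection, and an effect of lower TSG101 cannot be told apart in this design. TSG101 itself gave net intensities of 283 and 365 in Saos-2-2, against 443 and 404 in Saos-2, and a log2 ratio of -0.36 (standard error 0.12, adjusted p = 0.201 by limma). All ratios given are log2 of Saos-2-2 over Saos-2 after loess normalization, so that a positive value means higher in Saos-2-2. Net intensities are spot means minus local background before that step. Where the lines are said to overlap or not, net intensities are compared across both arrays, without pairing by array or correction for dye. Lines that overlap in this sense can still differ in the same direction within each array. Of 9 osteoblast markers, 8 were tested and all 8 were above background in both lines. Several differed far more between the replicates than any RAB gene did, such as COL1A2 at -3.23 and 3.33 and SPARC at -2.22 and 2.27 on replicates 1 and 2, and the part of this difference in the RAB values was not tested.

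In limma, 0 of the 97 RAB clones were called higher after adjustment (0% of all tested clones) and 0 lower (0%), and the smallest adjusted p on the arrays was 0.106. At an unadjusted p under 0.05, 11 RAB clones of 8 genes were higher, or 11.3%, beside 13.5% of all tested clones, and 12 RAB clones of 8 genes were lower, or 12.4%, beside 9.7%. Both shares were near those of the whole array. With 1 clone a gene, the one of highest mean intensity, 23 RAB genes lay above 0 and 22 below. Of all 12810 genes, 6056 lay above 0 and 6754 below. The median log2 ratio was 0.02 over RAB genes, beside -0.02 over all genes. On replicate 1 alone 15 of the 45 genes lay above 0, with a median of -0.08 beside -0.03 over all genes. On replicate 2 alone 24 did, with a median of 0.02 beside -0.01. With the deposited log2 ratios 31 of 45 lay below 0. Those ratios lay below 0 for the arrays as a whole too, with a median of -0.14 over all genes beside -0.15 over RAB genes. At an unadjusted p under 0.05, 4 of the 45 genes were higher and 5 lower, where 11.8% and 11.5% of all genes were. The median of the family differed little from that of the arrays. Single members lay well away from 0 on both replicates, but RAB genes were spread no more than all genes. The standard deviation across genes was 0.32, beside 0.38 over all genes. The 10% and 90% points were -0.39 and 0.38, beside -0.41 and 0.43.

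**Figure D1:**
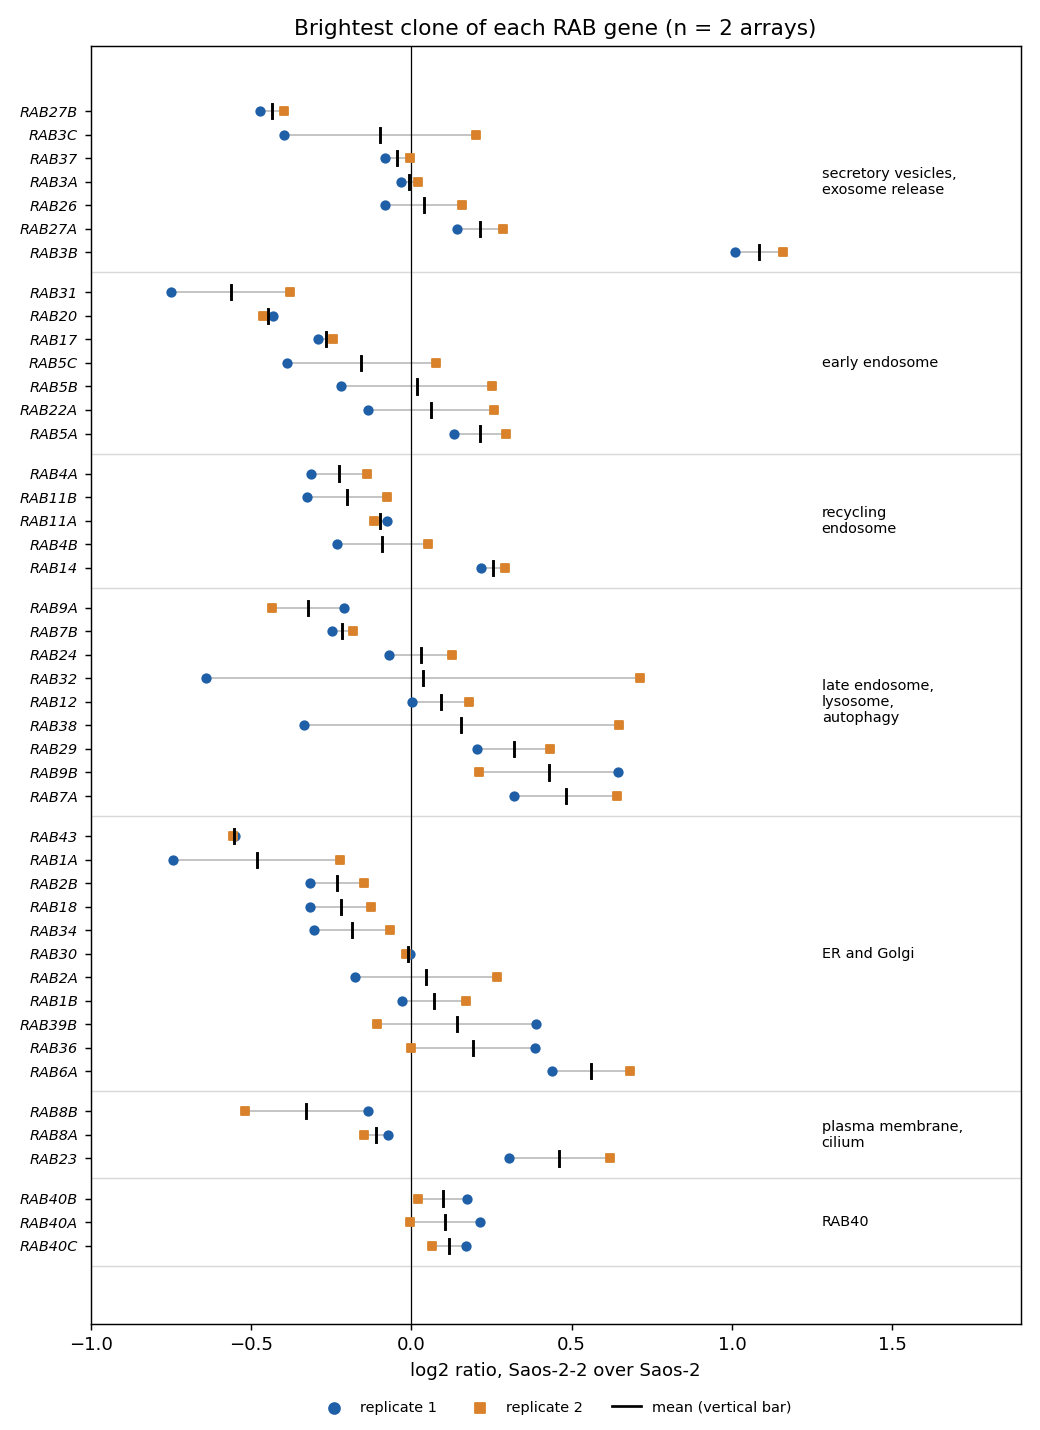
Log2 ratio of Saos-2-2 over Saos-2 for the brightest clone of each of 45 RAB genes, grouped by the compartment a gene is known for. Circles and squares are replicates 1 and 2, and the vertical bar is their mean. RAB3B lies apart on the right at 1.09, and 41 of the 45 means lie within 0.5 of 0.

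Among RAB genes of secretory vesicles and exosome release, RAB27B was the lowest and RAB3B the highest, and 4 of the 7 genes lay below 0, with a median of -0.01. RAB27B, which docks multivesicular endosomes and secretory granules at the plasma membrane, was read by 2 clones of its own. On IMAGE:25194 the net intensities were 61 and 55 in Saos-2-2, against 297 and 243 in Saos-2. The lines did not overlap, and the log2 ratio was -1.71 (-1.70 and -1.72 on the replicates, standard error 0.10, 3.27-fold lower, adjusted p = 0.106). The normexp offset of 50, added to both lines, makes the ratios of dim clones smaller in size. With plain background subtraction in place of normexp the ratio was -2.39. On IMAGE:2112621 the net intensities were 123 and 153 in Saos-2-2, against 186 on each array in Saos-2. Here too the lines did not overlap, but the log2 ratio was -0.43 (standard error 0.10, adjusted p = 0.146), so that the clones had the same sign and differed 1.27 in size. Another clone, IMAGE:155227, which carries the symbols of RAB27B and TUFM, gave -0.81 (adjusted p = 0.112) as a mean over its spots. The spot from a plate named CGAP gave -0.59 and -0.39 on the replicates, and the spot from another plate -1.32 and -0.93. RAB27B is in the list of changed genes that the study drew from these same arrays, so its low ratio is no independent evidence.

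RAB3B, a RAB of regulated exocytosis, gave net intensities of 181 and 217 in Saos-2-2, against 62 and 55 in Saos-2, on its only clone, IMAGE:687297. Both Saos-2-2 values were above both Saos-2 values, with a log2 ratio of 1.09 (1.01 and 1.16, standard error 0.11, 2.12-fold higher, adjusted p = 0.106). With plain background subtraction in place of normexp and its offset the ratio was 1.56. RAB3A and RAB3C, its relatives on synaptic vesicles, had brightest clones at -0.01 and -0.10. A second clone of RAB3A stood at 0.50 (0.21 and 0.78, adjusted p = 0.221), and the clones of this gene differed in sign. RAB26 and RAB37, of secretory granules, had ratios of 0.04 and -0.04.

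RAB27A, the close paralog of RAB27B, also promotes the docking of multivesicular endosomes and of melanosomes and lytic granules. Its 7 clones were all above 0, between 0.06 and 1.27, and their size followed the set of source plates. The 3 clones on plates named CGAP gave 1.27, 0.73 and 0.42, and the 4 clones on other plates gave 0.21, 0.18, 0.12 and 0.06. For the highest, IMAGE:950158, net intensities were 221 and 354 in Saos-2-2, against 78 and 83 in Saos-2, which did not overlap (standard error 0.14, adjusted p = 0.106). For the brightest, IMAGE:291947, they were 336 and 503 in Saos-2-2, against 320 and 373 in Saos-2, which overlapped. Within the arrays its ratios were 0.14 and 0.28, with a standard error of 0.11 and an adjusted p of 0.319. The well of this clone had a mark in the column for failed wells of the array files. The codes of that column are not explained in the sources used here. Clones with a spot on CGAP plates were higher at an unadjusted p under 0.05 in 31.8% of 3658 cases, beside 11.3% of 31016 clones on other plates. On the plate that held the CGAP clones of RAB27A the share was 46.1% of 319 clones, with a median log2 ratio of 0.33. Of the RAB clones, 2 of 8 were higher on CGAP plates, both of RAB27A, and 9 of 89 elsewhere. A CGAP clone that carries the symbols of PHF14 and RAB27A was at 0.40 (0.16 and 0.64). Related cDNAs can cross-hybridise on spotted arrays, and whether this touched the values of paralogs such as RAB27A and RAB27B, RAB1A and RAB1B, or the RAB5 and RAB11 genes was not tested.

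**Figure D2:**
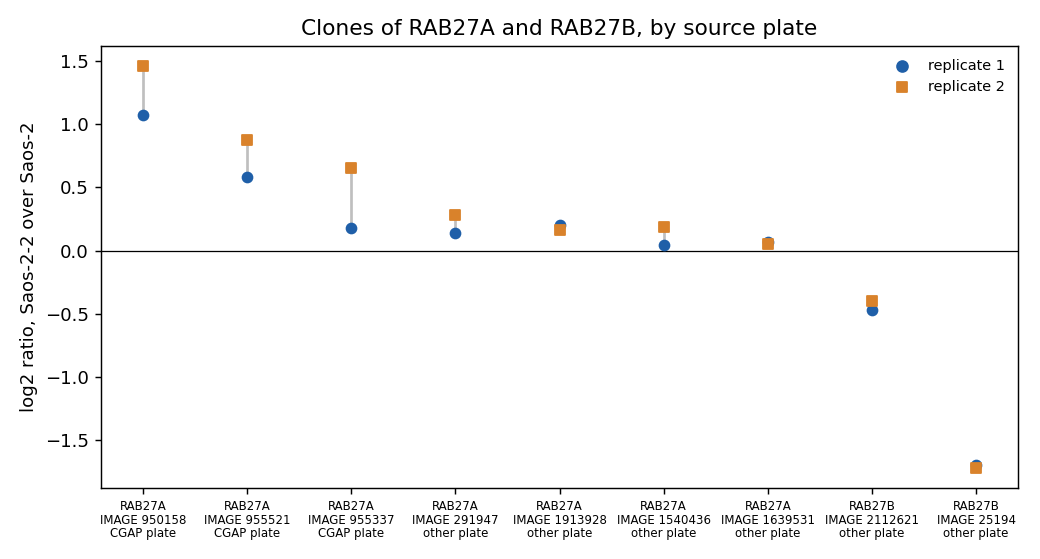
Log2 ratio of Saos-2-2 over Saos-2 for the 7 clones of RAB27A and the 2 clones of RAB27B, with circles for replicate 1 and squares for replicate 2. The CGAP clones of RAB27A range up to 1.27 on average, the other clones of the gene lie between 0.06 and 0.21, and both RAB27B clones are below 0.

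The stretches just upstream of the annotated start of RAB27B, RAB27A, RAB31 and RAB3B are shown. RAB31 and RAB3B were the lowest and the highest gene by their brightest clones. RAB27A and RAB27B are paralogs with brightest clones at 0.21 and -0.43 (adjusted p = 0.319 and 0.146 by limma). The stretches come from RefSeq on GRCh38.p14, where 36 of the 45 tested genes were matched (RAB12, RAB1A, RAB20, RAB26, RAB2A, RAB36, RAB37, RAB38 and RAB39B were not). Each is the 250 bases before the start in the 5′ to 3′ direction of the gene, and capitals mark motifs on either strand.
RAB27B, chr18:54717607-54717856, plus strand: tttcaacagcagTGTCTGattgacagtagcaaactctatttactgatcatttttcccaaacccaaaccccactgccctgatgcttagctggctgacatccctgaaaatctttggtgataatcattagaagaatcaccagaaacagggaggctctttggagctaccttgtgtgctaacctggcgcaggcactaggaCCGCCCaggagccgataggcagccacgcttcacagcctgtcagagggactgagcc
RAB27A, chr15:55319124-55319373, minus strand: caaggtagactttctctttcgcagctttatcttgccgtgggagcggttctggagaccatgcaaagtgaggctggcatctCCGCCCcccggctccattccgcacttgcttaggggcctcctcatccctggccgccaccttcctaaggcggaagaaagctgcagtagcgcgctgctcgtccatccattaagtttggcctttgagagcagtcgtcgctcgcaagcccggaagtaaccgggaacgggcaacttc
RAB31, chr18:9708051-9708300, plus strand: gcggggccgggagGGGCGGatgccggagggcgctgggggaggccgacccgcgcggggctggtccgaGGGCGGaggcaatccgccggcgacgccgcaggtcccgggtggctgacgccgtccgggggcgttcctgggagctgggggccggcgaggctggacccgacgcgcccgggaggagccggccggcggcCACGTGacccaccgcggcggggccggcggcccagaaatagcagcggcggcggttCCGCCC
RAB3B, chr1:51990701-51990950, minus strand: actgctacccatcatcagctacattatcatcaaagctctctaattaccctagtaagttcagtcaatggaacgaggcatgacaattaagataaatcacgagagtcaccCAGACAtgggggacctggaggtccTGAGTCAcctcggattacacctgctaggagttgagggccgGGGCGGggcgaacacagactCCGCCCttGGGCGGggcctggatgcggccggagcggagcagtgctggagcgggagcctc
The motifs searched were the AP-1 motif TGAGTCA, the cAMP response element TGACGTCA, the E-box with letters CACGTG, the GC box with letters GGGCGG, the CCAAT box by that name, the TATA box with letters TATAAA, and the SMAD box with letters CAGACA. None of these holds another. A GC box was present in 28 of the 36 RAB stretches, or 77.8%, and in 42.6% of 35116 stretches of that length. The latter are all annotated stretches, not those of the genes tested on the arrays. The RAB stretches were also richer in G and C, with a median of 66.2% against 58%. The part of this base composition in the GC box share was not tested. AP-1 letters were in 2 of them, those of RAB3B and RAB5B, or 5.56%, against 4.2% of all, and the E-box was in 4, those of RAB24, RAB31, RAB4A and RAB5A, or 11.1%, against 6.34%. The SMAD box was also in 4, those of RAB22A, RAB27B, RAB3B and RAB7A, against 13.6% of all, the CCAAT box in 33.3% against 32%, the TATA box in 5.56% against 10.7%, and the cAMP response element in none of the 36 against 1.65%. The RAB27B stretch held 4 CpG dinucleotides and that of RAB27A 17, while RAB31 had 40 and RAB3B 12. The median was 22.5 over the 36 RAB stretches and 11 over all. These are matches of letters only, and no factor was measured on them.

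The early endosome group of 7 genes had a median of -0.16, with 4 genes below 0. RAB31, which works between the trans-Golgi network and endosomes, was lowest in the family by its brightest clone. On that clone, IMAGE:295564, net intensities were 248 and 540 in Saos-2-2, against 478 and 669 in Saos-2. The spot was brighter on replicate 2 in both lines, so that the lines overlapped across arrays while Saos-2-2 was lower within each, at -0.75 and -0.38 (mean -0.56, standard error 0.14, adjusted p = 0.151). All 4 clones of RAB31 were below 0, with means of -0.56, -0.56, -0.47 and -0.39 and adjusted p from 0.151 to 0.164. RAB31 was the only RAB gene of 3 or more tested clones in which each clone had an unadjusted p under 0.05.

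RAB20, found on endosomes and phagosomes, gave 233 and 229 in Saos-2-2, against 348 and 298 in Saos-2, on IMAGE:1898031. The lines did not overlap, and the log2 ratio was -0.45 on this clone (standard error 0.10, adjusted p = 0.142) but -0.05 on a dimmer one. RAB5A, which drives early endosome fusion, had ratios of 0.21 and 0.14 on its 2 clones. The first of these averaged 3 spots, with net intensities of 465.67 and 745.67 in Saos-2-2, against 455.67 and 561.67 in Saos-2, which overlapped (adjusted p = 0.322). Its ratios within the arrays were 0.13 and 0.29. RAB5B and RAB5C stood at 0.02 and -0.16 with opposite signs on the arrays, and RAB17, a RAB of epithelial sorting, at -0.27. The RAB17 spot was dim, with net intensities of 25 and 38 in Saos-2-2, against 38 and 41 in Saos-2. RAB22A, of endosomal sorting, had 3 clones between -0.01 and 0.06.

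In the recycling endosome group 4 of 5 genes were below 0, with a median of -0.10, and none had an unadjusted p under 0.05 by its brightest clone. RAB11A, the main RAB of the recycling endosome, was read by 3 clones that nearly coincided, at -0.10, -0.10 and -0.08. RAB11B gave -0.20 and -0.09. RAB4A, which acts in fast recycling, gave net intensities of 192.67 and 240.67 in Saos-2-2, against 256.33 and 223.33 in Saos-2, over 3 spots of IMAGE:230205. The lines overlapped, with a ratio of -0.23 (-0.31 and -0.14 within the arrays, standard error 0.11, adjusted p = 0.310). Of these 3 spots, 2 came from wells marked as failed. Without the wells so marked the ratio was -0.42 (adjusted p = 0.149). The second RAB4A clone, IMAGE:786220, was at -0.12, with 0.03 and -0.27 on the arrays. RAB4B had clones of both signs, from -0.32 (adjusted p = 0.206) to 0.14, of which the pair above 0 was on CGAP plates. RAB14, between Golgi and endosomes, was at 0.25 and 0.12 on its clones. The clones that pair a RAB with a second symbol included RAB35 with LOC100130711, at -0.21 and -0.28, RAB4A with SPHAR, at -0.08, and RAB14 with KIAA0319L, at -0.15.

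Of 9 genes of the late endosome, lysosome and related organelles, 7 were above 0, with a median of 0.09. Among the 7, RAB24, RAB32 and RAB38 had opposite signs on the arrays. By the brightest clone only RAB7A had an unadjusted p under 0.05 in limma. RAB7A, which controls late endosome fusion with lysosomes, gave 2337 and 2465 in Saos-2-2, against 2158 and 1546 in Saos-2, on IMAGE:897626. The lines did not overlap, with a log2 ratio of 0.48 (0.32 and 0.64, standard error 0.13, adjusted p = 0.165), and its other clone was at 0.47. A clone that carries both MPST and RAB7A gave -0.50 (-0.88 and -0.11), opposite to the clones of RAB7A alone. RAB7B, a late endosome and Golgi relative, differed in sign between clones, with -0.22 and -0.11 for those with a spot on CGAP plates and 0.37 for the third (adjusted p = 0.180).

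RAB9A, which carries mannose 6-phosphate receptors from endosomes to the Golgi, stood at -0.32 (standard error 0.12, adjusted p = 0.225). Its clone had 3 spots, 1 of them unusable on replicate 2, and the net intensities averaged 59.3 and 44 in Saos-2-2, against 64.3 and 57.5 in Saos-2. The values of the lines overlapped, while the ratios within the arrays were -0.21 and -0.44. RAB9B, its paralog, gave 170 and 138 in Saos-2-2, against 88 and 90 in Saos-2, on its brightest clone. Both Saos-2-2 values were higher, and the ratio was 0.43 (standard error 0.15, adjusted p = 0.217), with 0.72 on a second clone (170 and 139, against 65 and 61 in Saos-2, adjusted p = 0.123). RAB29, a RAB recruited with LRRK2 to lysosomes and the trans-Golgi and listed on the arrays as RAB7L1, was at 0.32 (0.21 and 0.43, adjusted p = 0.227). Its net intensities were 74 and 113 in Saos-2-2, against 51 and 53 in Saos-2. RAB12 and RAB24, of recycling to lysosomes and autophagy, were at 0.09 and 0.03.

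RAB32 and RAB38, which deliver enzymes to melanosomes and other lysosome-related organelles, differed more between the arrays than the other RAB genes by their brightest clones. RAB32, named here after its values were seen, gave 592 and 1776 in Saos-2-2, against 1055 and 1034 in Saos-2. The Saos-2-2 values lay on both sides of the Saos-2 values, with ratios of -0.64 and 0.71 and a standard error of 0.36. RAB38 gave 557 and 1019 in Saos-2-2, against 788 and 599 in Saos-2, with -0.34 and 0.65 on the arrays. Its second clone had the same signs, -0.22 and 0.10, so that for both genes the mean near 0 covers unlike replicates.

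**Figure D3:**
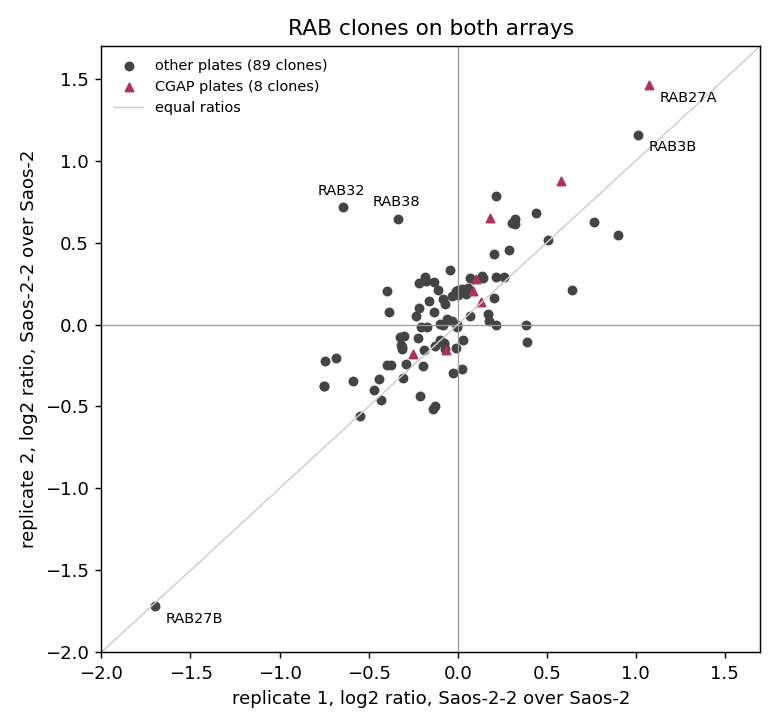
Log2 ratio of Saos-2-2 over Saos-2 on replicate 1 (horizontal axis) and replicate 2 (vertical axis) for the 97 tested RAB clones, with triangles for clones with a spot on CGAP plates. Most clones lie near the line of equal ratios, 26 have opposite signs on the arrays, and RAB32 and RAB38 lie at the upper left.

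The ER and Golgi group of 11 genes had a median of -0.01, with 6 genes below 0. RAB43, of Golgi organisation, gave 54 and 50 in Saos-2-2, against 91 and 73 in Saos-2, on its only clone. The lines did not overlap, and the ratios of -0.55 and -0.56 nearly coincided (standard error 0.10, adjusted p = 0.122). RAB1A, required for transport from ER to Golgi, gave 1265 and 1972 in Saos-2-2, against 2463 and 2296 in Saos-2, on IMAGE:293715. Both Saos-2-2 values were lower, with -0.74 and -0.22 on the replicates (mean -0.48, standard error 0.17, adjusted p = 0.214), and the other clone was at -0.44. Its paralog RAB1B was at 0.07.

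RAB6A, which acts in retrograde traffic to and within the Golgi, was represented by 8 clones from -0.31 to 0.56, and 5 of these were below 0. The brightest, IMAGE:296495, gave 968 and 1360 in Saos-2-2, against 785 and 795 in Saos-2, without overlap (0.56, standard error 0.12, adjusted p = 0.135). No other clone of RAB6A had an unadjusted p under 0.05, so the direction of this gene was not settled. RAB39B, a neuronal RAB of the secretory route and also named after its values were seen, had 3 clones above 0. On IMAGE:42872 net intensities were 134 and 147 in Saos-2-2, against 54 and 60 in Saos-2, a ratio of 0.69 (standard error 0.11, adjusted p = 0.111). On IMAGE:1883851 they were 88 and 99 in Saos-2-2, against 42 and 39 in Saos-2, a ratio of 0.51 (adjusted p = 0.127). The lines did not overlap on either, whereas the brightest clone was at 0.14 with 0.39 and -0.11 on the arrays. RAB2A, of ER to Golgi transport, had 5 clones between -0.16 and 0.19, and RAB36, a Golgi RAB, was at 0.19 and -0.09. RAB18, of lipid droplets and ER, was at -0.22 and -0.31, RAB30 at -0.01, -0.32 and -0.17, RAB2B at -0.23 and RAB34 at -0.19.

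Among 3 genes of plasma membrane delivery and cilium, RAB23, an inhibitor of Hedgehog signalling, gave 720 and 1013 in Saos-2-2, against 634 and 608 in Saos-2, on IMAGE:502603. The lines did not overlap, with a ratio of 0.46 (standard error 0.13, adjusted p = 0.170) and 0.17 on a second clone. RAB8B, of delivery to the plasma membrane, gave 77 and 66 in Saos-2-2, against 81 and 89 in Saos-2. Both values were lower in Saos-2-2, with a ratio of -0.33 (standard error 0.14, adjusted p = 0.271). On a second clone, IMAGE:131016, net intensities were 83 and 76 in Saos-2-2, against 87 and 66 in Saos-2. There the net intensities overlapped across the arrays, while the ratio was -0.13 on each replicate. RAB8A was at -0.11 and -0.22 on its clones. The 3 genes of the RAB40 subfamily, which join a RAB domain to a SOCS box of ubiquitin ligases, had brightest clones at 0.11 for RAB40A, 0.10 for RAB40B and 0.12 for RAB40C. The second clone of RAB40C was at -0.03.

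**Figure D4:**
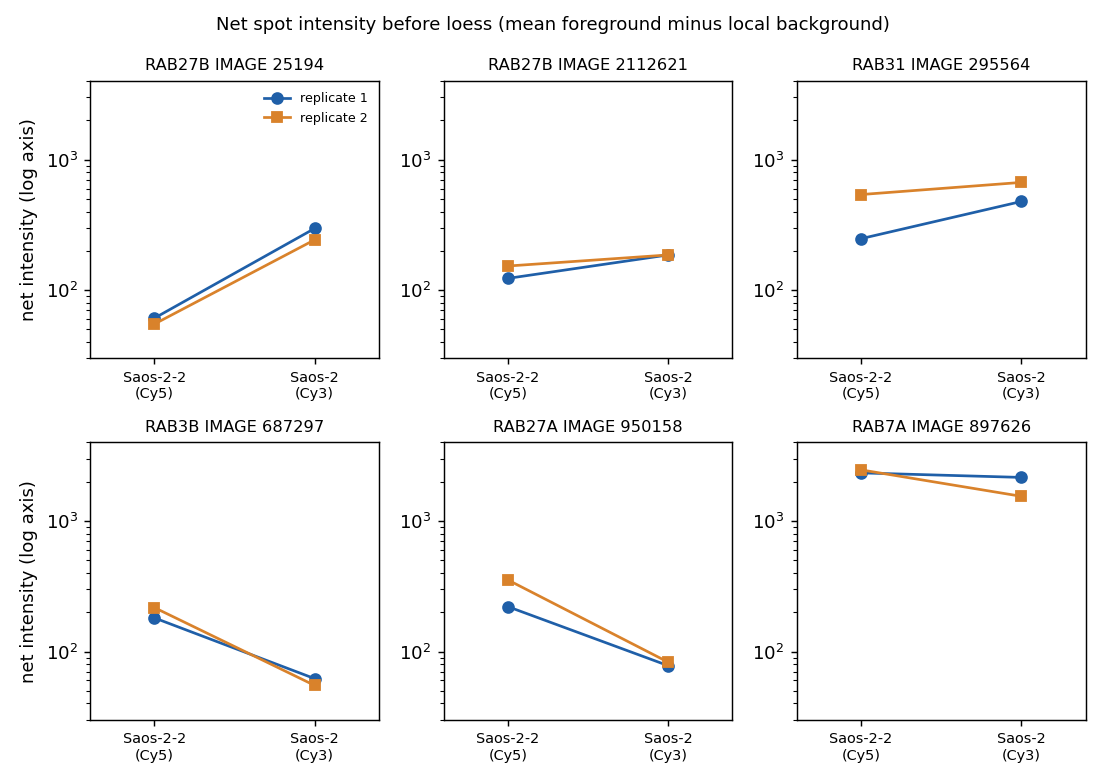
Net spot intensity (log axis, before loess) in Saos-2-2 on the left and Saos-2 on the right for 6 RAB clones, with a line for each replicate. Saos-2-2 is lower on both replicates for the RAB27B and RAB31 clones and higher on both for the RAB3B, RAB27A and RAB7A clones.

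Of the 45 genes, 29 had 2 or more tested clones, and in 20 of them all clones had the same sign. The median distance between the highest and lowest clone was 0.20, and it was over 1 only for RAB27B, at 1.27, and RAB27A, at 1.21. Of the 97 clones, 71 had the same sign on both arrays. By gene, 30 of 45 did, or 66.7%, against 68.6% of all genes. Across RAB clones, which share the same arrays and are no independent replicates, Pearson's r between the replicates was 0.76 and Spearman's rho 0.65, beside 0.49 and 0.53 over all tested clones.

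**Figure D5:**
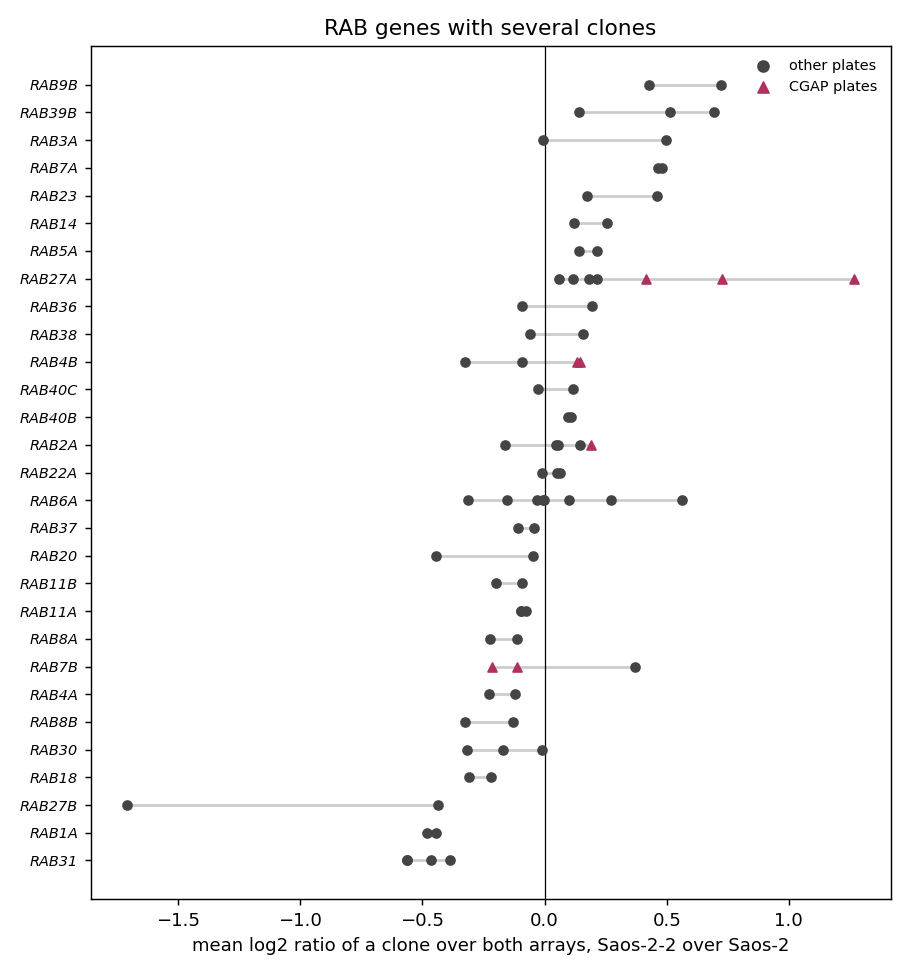
Mean log2 ratio of Saos-2-2 over Saos-2 over both arrays for each clone of the 29 RAB genes with 2 or more tested clones, with triangles for clones with a spot on CGAP plates. The 4 clones of RAB31 lie together below 0, the 8 of RAB6A lie on both sides, and RAB27A and RAB27B are spread most.

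The proteins that switch RABs on and off or act below them were described from a list of 94 genes, of which 86 were tested. At an unadjusted p under 0.05 there were 14 higher and 5 lower genes, beside 11.8% and 11.5% of all genes, and none passed an adjusted p of 0.05. The median log2 ratio was 0.07. Of 23 GTPase-activating proteins 7 were higher and none lower, of 35 effectors 6 were higher and 3 lower, of 20 exchange factors 1 was lower, and of 8 GDI, REP and prenylation genes 1 was higher and 1 lower. Among these genes with an unadjusted p under 0.05, the highest were RAB11FIP4, an effector of RAB11, at 0.99 (1.35 and 0.64, adjusted p = 0.134), RIMS1, an effector of RAB3 at synapses, at 0.92, MYRIP, which links RAB27A to myosin, at 0.82 (0.45 and 1.19), and TBC1D30, a GTPase-activating protein, at 0.66. By the same limit, the lowest were PLIN3, a lipid droplet protein that binds RAB9, at -0.78 (-0.80 and -0.76, adjusted p = 0.106), SYTL1, an effector of RAB27 proteins, at -0.77, RABGGTB, a subunit of the enzyme that prenylates RABs, at -0.74 (-0.59 and -0.89), and RIN1, an exchange factor of RAB5, at -0.42. RAB27 effectors were found both above and below 0. Besides MYRIP and SYTL1, MLPH was at 0.0004, EXPH5 at -0.10, UNC13D at -0.06, SYTL5 at 0.23 and RPH3AL at 0.43. SYTL2 was unlike between the arrays, at -1.75 and 1.24 on replicates 1 and 2.

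The call depended on how ratios were made from the spots. With the deposited log2 ratios, which carry no offset and no loess, 4 RAB clones passed an adjusted p of 0.05 as higher, beside 4.57% of all tested clones, and 1 passed as lower, beside 1.62%. The higher ones were RAB3B at 1.57 (adjusted p = 0.0245), RAB27A IMAGE:950158 at 1.52 (adjusted p = 0.0268) and both dimmer RAB39B clones at 1.14 and 0.97 (adjusted p = 0.0394 and 0.0463). The lower one was RAB27B IMAGE:25194 at -2.46 (-2.26 and -2.66, adjusted p = 0.0245). On these ratios the median over all genes was -0.14, beside -0.02 after loess. The net intensities of these 5 clones lay between 39 and 83 in the line where they were dimmer. With loess and plain background subtraction in place of normexp with its offset, 0 RAB clones passed, and RAB27B IMAGE:25194 was at -2.39 and RAB3B at 1.56 (adjusted p = 0.0507 for each). Which of the differences between these settings decides the calls was not tested.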

How the data were processed

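RNA of Saos-2-2 (Cy5) and Saos-2 (Cy3) was compared on 2 spotted cDNA arrays. The deposited intensities are linear scanner values of each spot and its local background, without normalization, and the deposited log2 ratios are ratios of medians scaled by a single factor per array. Agilent Feature Extraction is the tool that the submitters' notes list.

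Control spots and spots marked as unusable were not used. Normexp (offset 50) was applied to the mean foregrounds, arrays were normalized by global loess, spots of a clone were averaged, and clones with a channel at 1.5 times its local background on both arrays were fitted in limma 3.58.1 (R 4.3.3) against 0, with Benjamini-Hochberg adjustment over all 34674 clones. The fit was run on data simulated from its own variance model with independent noise, which cannot show that this model holds for these arrays. Precision is limited by the number of arrays, and the sources do not say whether the replicates were separate cultures. The p-values and standard errors use limma's moderated variance. It joins the spread between these 2 samples to a variance pooled over all tested clones, with a prior of 2.751 degrees of freedom. Even a clone whose replicates nearly coincided, such as RAB27B IMAGE:25194, thus had a standard error of 0.10. Symbols were brought to RefSeq names by gene identifier, and the clone of highest mean intensity stood for a gene in counts over genes.

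Members and gene lists were chosen with earlier results of these data known. Genes were named by a rule: TSG101, RAB genes with an unadjusted p under 0.05 by the brightest clone, the 6 highest and 6 lowest with the same sign on both arrays, a fixed set of RAB27A, RAB27B, RAB5A, RAB7A, RAB11A, RAB4A, RAB35, RAB9A and RAB1A, genes whose clones differed in sign or by over 1, and up to 4 regulators in each direction. The remaining RAB genes were named after their values were seen, so that every member is accounted for. Alternatives changed the background correction, foreground, normalization, filter, marked spots, variance model, values used, brightest clone and replicates, and leaving out failed wells or CGAP plates was added after the data were seen. Plots were made in matplotlib 3.10.9 with Python 3.11.15.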

Additional observations from a re-analysis of the deposited data

How the results depend on the processing

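No RAB clone passed an adjusted p of 0.05 under any tested alternative except the deposited log2 ratios, where 4 were higher and 1 was lower. Of 31 RAB clones followed, each over the 13 or 14 settings with both arrays that gave it a value, 26 were never under 0.05 and 27 kept their sign. The CGAP clones of RAB27A have no value without the CGAP plates. The count of clones lower at an unadjusted p under 0.05 was 7 of 77 with a filter at 3 times the background, against 12 of 97 in the fit reported. The median over RAB genes was 0.017. It ranged from -0.082 to 0.022 on single arrays and was -0.073 with median centring and -0.152 with the deposited ratios, whose median over all genes was -0.138. Some ratios near 0, or unlike between arrays, turned their sign. With 1 array left out, RAB22A ranged from -0.135 to 0.259, RAB2A from -0.176 to 0.267, RAB36 from -0.00026 to 0.385, RAB38 from -0.335 to 0.646, RAB3A from -0.032 to 0.020 and RAB4B from -0.231 to 0.051. Median centring gave RAB22A -0.044 and RAB2A -0.115, print-tip loess gave RAB2A -0.0084, and the deposited ratios gave RAB22A -0.152, RAB2A -0.124 and RAB38 -0.089. RAB3A was at 0.00045 without background correction and at 0.026 with the median foreground. The causes were not tested. Each ratio is taken within an array, so that the analysis is already paired by array. The dyes were not exchanged. Signal near the background limits RAB27B, RAB3B, RAB39B and RAB43, and among others also RAB9A, RAB9B, RAB17, RAB26 and RAB29.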

Other observations

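Where the same clone was printed from a CGAP plate and from another plate, 524 clones in all, the CGAP spot had the higher log2 ratio on both arrays for 303 clones and the lower for 115. The median difference, CGAP minus other, was 0.16 on replicate 1 and 0.18 on replicate 2. Among the RAB clones, IMAGE:155227 (RAB27B and TUFM) gave -0.59 and -0.39 on its CGAP spot and -1.32 and -0.93 on the other. RAB7B clone IMAGE:811146 gave 0.10 and 0.03 on its CGAP spot and -0.23 and -0.35 on the other, whose well was marked as failed.

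Some RAB spots changed in brightness between the arrays in both lines alike. RAB5B was at 41 in Saos-2-2 and 49 in Saos-2 on replicate 1, and at 497 in Saos-2-2 and 378 in Saos-2 on replicate 2. IMAGE:299559 (RAB35 and LOC100130711) was at 314 in Saos-2-2 and 451 in Saos-2 on replicate 1, and at 47 in Saos-2-2 and 45 in Saos-2 on replicate 2. The spots of a clone could also differ within an array: the 3 spots of RAB9A gave -0.62, 0.13 and -0.14 on replicate 1. The 2 spots of RAB2A clone IMAGE:79520 gave 0.09 and -0.14 on replicate 1 and -0.81 and 0.22 on replicate 2.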
